A study of Drosophila melanogaster with 28 samples.

Results

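Homeobox genes encode transcription factors that bind DNA through a homeodomain and assign regional and cell identities during development. Outside the Hox clusters they were examined here as 57 listed genes of 13968 protein-coding Drosophila melanogaster genes on the 7 chromosome arms and chromosomes with deposited signal. All 57 listed names matched 1 annotated gene each. They fall into 9 homeodomain classes: 16 NK-like, 10 PRD-like, 7 HOX-like, 7 PAX, 5 LIM, 5 TALE and 4 POU genes, 2 CUT genes, and Optix as the only sine oculis-type gene. Of the 57, 45 lie on chromosomes 2 and 3, 9 on X and 3 on chromosome 4.

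The libraries profile histone marks in testis tumours made by overexpressing the JAK-STAT ligand Upd. In germline tumours the nanos driver (GAL4::VP16-nanos.UTR) expressed UAS-Upd together with a UAS-FRT-H3-GFP-FRT-H3-mKO histone cassette in a y[1] w[1118] P{hs70FLP} background, and the submitters call the product GSC-like chromatin (germline stem cell). In cyst tumours a traffic Jam-GAL4 driver expressed Upd and the same histone cassette in a w[1118] background, and the product is called CySC-like chromatin (cyst stem cell, the somatic partner of the germline). Anti-GFP bound to protein A-MNase cut chromatin of the cells carrying H3-GFP, and the released chromatin was split into a small input share and a share for immunoprecipitation (IP). Germline and cyst each had 2 replicates of H3K4me3, 3 of H3K27me3 and 2 of H3K9me3, with 1 input per IP, which gives 28 libraries. Both tumour types share Upd and the H3-GFP label and differ in driver, labelled cell type and background together, which cannot be told apart. There was no tissue without Upd in these libraries. No source used here says that replicates came from separate animals, so p-values measure the spread between these preparations.

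Developmental homeobox genes are a textbook target of Polycomb repression, in which H3K27me3 covers genes that a cell type keeps silent. H3K4me3 marks starts of transcribed genes and, in some stem cells, starts that also carry H3K27me3. H3K9me3 marks heterochromatin, which in Drosophila includes the centromere-near regions and chromosome 4.

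Signal is the number of fragments per window divided by 1 value per library, so that 1 is the autosomal median. Promoter windows reach 500 bp to each side of the annotated start, and gene bodies run from start to end. The deposited signal held 942943 to 18199704 fragments per library, and the shallowest was the germline H3K27me3 IP of replicate 1. In the germline, 2 of 8 highly transcribed control genes were above input in H3K4me3 at promoters (median log2 difference 0.16), and in cyst 3 of 8 (median 0.46), where 20.8% and 27.7% of all genes tested were called. Of 6 germline marker genes, 1 was above and 1 below input in germline, and 2 above and 1 below in cyst; of 5 cyst marker genes, 1 was above input in each. The median log2 H3K27me3 difference of the 8 control promoters was -0.46 in germline and -0.99 in cyst. All 57 homeobox genes passed the minimum of 10 fragments per library on average in each fit, except that 55 passed for H3K27me3 promoters when germline replicate 3 was left out.

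The homeobox promoters differ from the average gene in base composition. Their median GC content was 50%, against 42.4% over all genes, while gene bodies were close (45.2% and 45.7%). The genes are long, with a median of 11247 bp against 2164 bp. GAGAG or its complement CTCTC, the core bound by the GAGA factor that works with Polycomb and Trithorax proteins, occurred within 500 bases before the start of 45 of 57 homeobox genes (78.9%), against 5720 of 13968 genes (41%). GCCAT or ATGGC, the core bound by the Polycomb recruiter Pho, occurred in 44 of 57 (77.2%), against 59.2% of all genes. TATAAA or TTTATA occurred in 24 of 57 (42.1%), against 61.5%. Motifs were searched on both strands with overlapping matches counted, and a match is a run of letters, not evidence of binding. The GAGAG or CTCTC nearest the start is shown for 4 genes above input in H3K4me3 and for ey, the gene below it, 5′ to 3′ along the direction of transcription, from the RefSeq Release 6 assembly (dm6), with that motif in capitals and 12 bases to each side.
exex, chr3L:7948081-7948109, plus strand: cagagagcgagaGAGAGaagcagagcggt
slou, chr3R:21557295-21557323, minus strand: gagcgccgcacaGAGAGtcactcaaagca
tup, chr2L:18881364-18881392, minus strand: ctagtcgcactgCTCTCgcaggcagaatg
B-H1, chrX:17397283-17397311, plus strand: agccgtggaagcGAGAGgcagcgaaagcg
ey, chr4:697638-697666, plus strand: tttttacacgccGAGAGttgccatcctga
Of these genes, exex, slou and tup were above input in both tumour types and B-H1 in cyst, and ey, with the same letters, was below it. The 4 genes with neither GAGAG nor GCCAT in either orientation in this window were ro, btn, exd and onecut. In H3K4me3, ro was called above input in both tumour types and btn in germline only, while exd and onecut were not called. The unpg window held no GAGAG or CTCTC.

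At promoters, H3K4me3 was above input in 21 of 57 homeobox genes in germline (36.8%), where 20.8% of all 13686 genes tested were called, and in 11 of 57 in cyst (19.3%), where 27.7% of all genes were called. Calls are those with a limma adjusted p under 0.05 over all genes and a fold over 1.5. Only ey was below input, in both tumour types, against 4.52% of all genes called lower in germline and 3.58% in cyst. The median log2 difference over the 57 genes was 0.48 in germline and 0.28 in cyst, while all genes had 0.21 and 0.26. Genes above input in both tumour types were eve, exex, ro, slou, tup and unpg, which is 28.6% of the germline list and 54.5% of the cyst list. For all genes the shared part was 73.3% of the germline list and 55% of the cyst list. Of 26 other homeobox genes, 10 were above input in germline (38.5%) and 2 in cyst (7.69%). Of the 12 Hox genes, 2 were above it in germline (16.7%) and 3 in cyst (25%).

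The HOX-like class, which are homeodomain genes related to the Hox genes but outside their clusters, held the highest share, with 5 of 7 above input in germline and 4 of 7 in cyst. At unpg (unplugged), a gene of the developing trachea and brain, the H3K4me3 IP signal was 1.15 and 1.42 in germline, against 0.475 and 0.376 in the inputs. In cyst the unpg IP signal was 0.899 and 0.98, against 0.386 and 0.452 in the inputs. IP and input did not overlap in either tumour type, and the log2 differences were 1.4 ± 0.23 (SE, limma adjusted p = 0.000199) in germline and 1.00 ± 0.23 (adjusted p = 0.00152) in cyst. The pair-rule segmentation gene eve gave 1.22 and 1.08 in germline IPs, against 0.489 and 0.629 in inputs. Its cyst IPs gave 1.08 and 1.33, against 0.482 and 0.691. Its differences were 0.93 ± 0.23 in germline and 0.94 ± 0.23 in cyst, and the IPs of eve stood clear of its inputs in both. The motor neuron gene exex was at 0.65 in germline and 0.75 in cyst, and ro, which patterns photoreceptors, at 0.67 and 0.82. The mesodermal gene btn was above input in germline, at 0.90, and stood at 0.13 in cyst, which did not pass. The posterior gene cad stood at 0.48 in germline and 0.56 in cyst, and neither passed (limma adjusted p = 0.0991 and 0.0505). The ro start lies within 1000 bp of another coding start, and the genes ro and btn overlap another coding gene, so their fragments cannot be assigned to 1 gene alone.

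Among the 16 NK-like genes, which pattern mesoderm, nervous system and limbs, 5 were above input in germline and 4 in cyst. The muscle founder gene slou had IP signals of 1.56 and 1.15 in germline, against 0.615 and 0.751 in inputs. Its cyst IPs were 1.53 and 1.45, against 0.482 and 0.833. Every slou IP exceeded every slou input, with log2 differences of 0.88 ± 0.23 in germline and 1.11 ± 0.23 in cyst. The other NK-like genes above input in germline were bap (0.80), which specifies visceral mesoderm, Dr (0.84), which acts in neuroectoderm, C15 (0.75) and H2.0 (0.65). In cyst they were B-H1 (0.95), E5 (0.63) and the limb gene Dll (0.64). B-H1 and B-H2 are neighbouring Bar genes on X, and the B-H2 promoter stood at 0.67 in germline and 0.72 in cyst, neither past the threshold (adjusted p = 0.0843 and 0.0514). The heart gene tin stood at 0.52 and 0.28, and did not pass.

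Of the 5 LIM genes, which act in neurons and appendages, tup, Lim3 and Awh were above input in germline and tup alone in cyst. The tup IP signal was 1.56 and 0.943 in germline, against 0.644 and 0.608 in inputs, and 1.17 and 1.21 in cyst, against 0.803 and 0.7. Its log2 differences were 0.86 and 0.60. The wing gene ap stood at 0.28 and 0.32, and did not pass. Of the 10 PRD-like genes, Rx, otp, repo, Ptx1 and Pph13 were above input in germline and Gsc in cyst. Another coding start lies within 1000 bp of that of Pph13, and repo and Lim3 overlap other coding genes. Rx, a head and brain gene that lies 13339 bp from the start of otp, had germline IP signals of 1.33 and 1.42, against 0.448 and 0.555 in inputs. Its cyst IPs were at 0.674 and 0.726, against 0.675 and 0.5. The germline IPs of Rx stood clear of its inputs (1.30 ± 0.23, adjusted p = 0.000293), while its cyst IPs overlapped them (0.23 ± 0.23, adjusted p = 0.46).

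**Figure D1:**
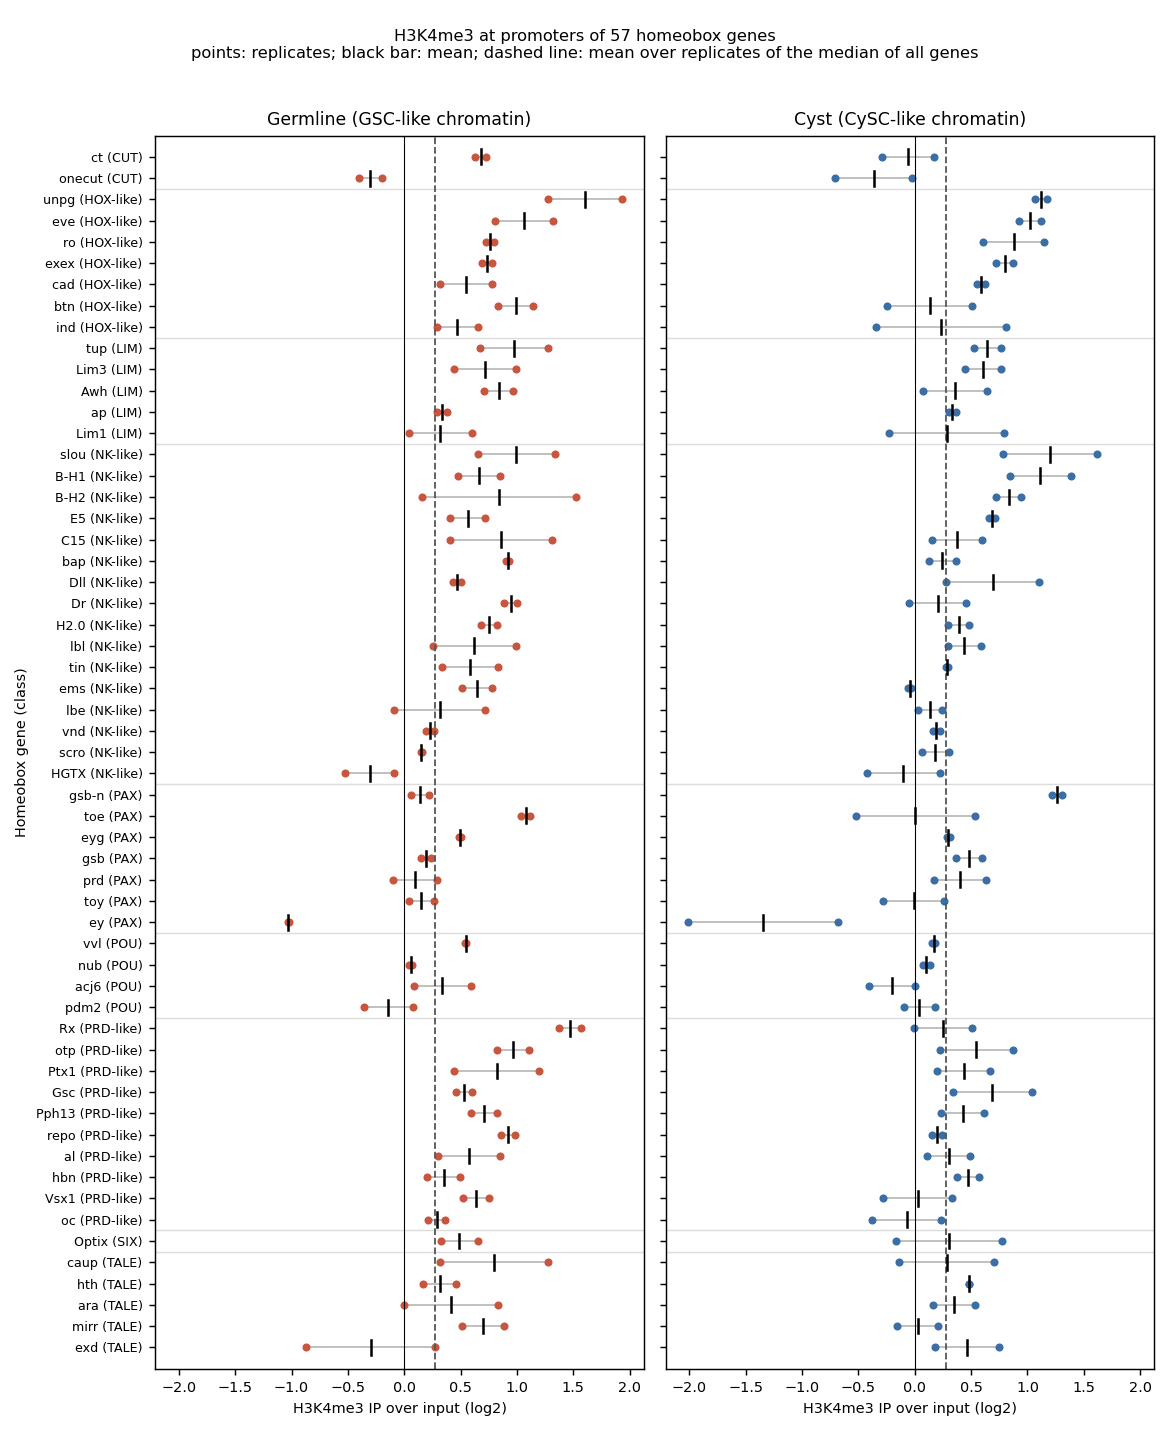
H3K4me3 IP over input (log2, x axis) at the promoters of the 57 homeobox genes (y axis, grouped by class) in germline (left) and cyst (right). Points are the 2 replicates, black bars their mean and the dashed line the mean over replicates of the median of all genes (0.27 in each panel); unpg, eve and slou stand to the right in both panels and ey at -1.03 and -1.35.

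Of the 7 PAX genes, toe, an eye gene, was above input in germline (0.95 ± 0.24), and stood at 0.02 in cyst. The PAX genes included the highest cyst value and the lowest value in each tumour type. The segmentation gene gsb-n had cyst IP signals of 1.17 and 1.8, against 0.458 and 0.762 in inputs, and germline IPs of 1 and 0.885, against 0.979 and 0.784. Its log2 difference was 0.09 ± 0.24 in germline and 1.16 ± 0.24 in cyst, and its IPs overlapped its inputs in germline but not in cyst. Its neighbour gsb, 9633 bp away, stood at 0.14 and 0.45. The eye gene ey, on chromosome 4, had IP signals of 0.741 and 0.769 in germline, against 1.58 and 1.63 in inputs. Its cyst IPs were 1.06 and 0.647, against 1.71 and 2.67. Both ey IPs lay below both inputs in each tumour type (log2 differences -1.0 ± 0.23 and -1.27 ± 0.23, limma adjusted p = 0.00234 and 0.000163). The related eye gene toy, also on chromosome 4, stood at 0.12 and -0.01. On chromosome 4, 44.3% of all 79 genes were called lower in germline and 8.86% in cyst. None of the 4 POU genes (vvl, nub, pdm2, acj6), the 2 CUT genes (ct, onecut) or Optix was called in either tumour type. The tracheal gene vvl stood at 0.45 in germline and 0.16 in cyst, nub at 0.02 and 0.10, pdm2 at -0.16 and 0.04, and the olfactory neuron gene acj6 at 0.22 and -0.17. The ct IP signal was 0.704 and 0.769 in germline, against 0.434 and 0.514 in inputs, and 0.629 and 0.784 in cyst, against 0.771 and 0.691. Its IPs cleared the inputs in germline (0.55 ± 0.23, limma adjusted p = 0.0802) and overlapped them in cyst (-0.05 ± 0.23). Of the 5 TALE genes, which include Hox cofactors and the Iroquois genes, caup and mirr were above input in germline and none in cyst. The Hox cofactor hth stood at 0.24 and 0.44, and its partner exd at -0.30 and 0.45.

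The test of the difference between tumour types called none of the 57 genes by limma, edgeR or DESeq2, and none of the 13686 genes by limma. At an unadjusted p under 0.05 there were 6 homeobox genes and 1343 genes in all. Rx (1.07 ± 0.32, adjusted p = 0.304), toe (0.93), btn (0.77), repo and Dr were higher in germline and gsb-n (-1.07 ± 0.34, adjusted p = 0.318) lower. Replicates did not overlap, with germline higher, in 17 of 57 genes (29.8%), against 17.9% of all genes, and with cyst higher in 3 (5.26%; gsb, gsb-n and hth), against 21.1%. The germline and cyst H3K4me3 libraries carry different batch labels, so batch and tumour type cannot be told apart in this mark.

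Promoter GC content moves with these counts. With a loess correction of signal on GC content, 3 homeobox genes were above input in germline (Rx, scro, btn; 13.7% of all genes) and 3 in cyst (gsb-n, scro, exd; 26% of all genes), with ey lower in cyst, and the median log2 difference was 0.12 in germline and 0.05 in cyst, while all genes had 0.18 and 0.23. TMM scaling moved the median of all genes to -0.01 in germline and 0.00 in cyst and left 10 homeobox genes above input in germline (10% of all genes) and 5 in cyst (14.4%), while the median over the 57 genes stayed 0.27 and 0.03 above that of all genes. Without germline replicate 1 the germline count above input was 3 (4.43% of all genes) and without replicate 2 it was 9 (6.15%). Without cyst replicate 1 the cyst count was 2 (9.98%) and without replicate 2 it was 8 (24.7%), with ey no longer called.

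Averaged profiles place the signal relative to the start. In the germline, H3K4me3 over input of the 57 genes peaked in the 100-bp bin centred 150 bp before the start, at 0.88 ± 0.02 (SD, n = 2), and in cyst 250 bp after it, at 0.62 ± 0.02. Over all genes the peak was 150 bp after the start in both, at 0.88 ± 0.09 and 1.03 ± 0.34. The input profile of all genes had a peak in the bin centred 150 bp after the start, which reached 1.39 ± 0.29 in germline and 1.87 ± 0.24 in cyst inputs (SD over 7 libraries). The homeobox genes had input signals of 0.79 ± 0.05 and 0.87 ± 0.09 in this bin, below their signal 1950 bp before the start (1.00 ± 0.08 and 1.02 ± 0.09). The ratio of IP to input follows the input as well as the IP.

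**Figure D2:**
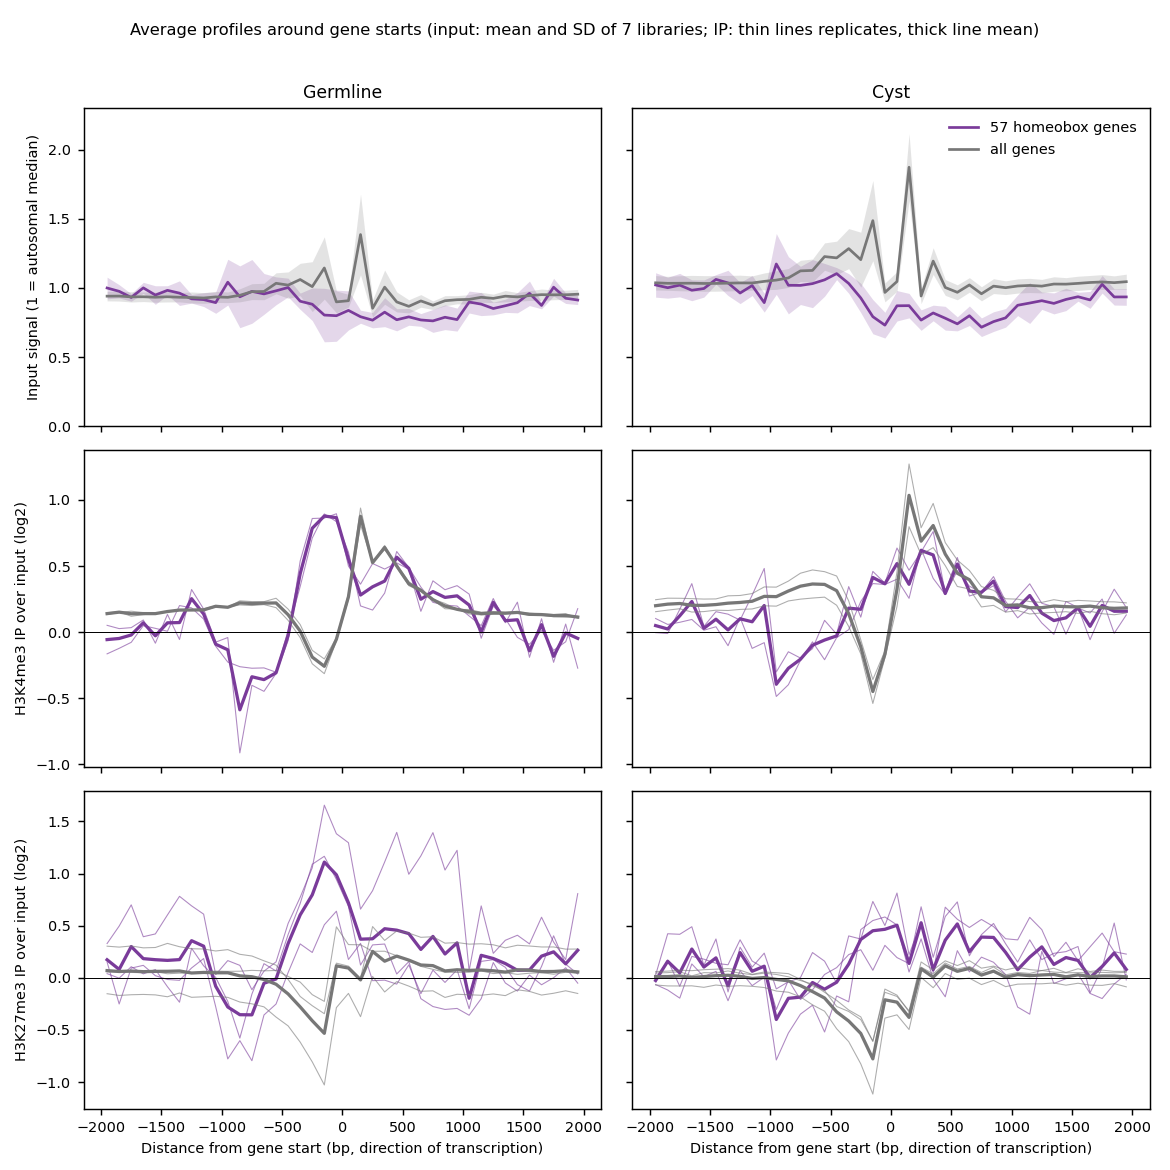
Input signal (top, 1 is the autosomal median), H3K4me3 IP over input (middle, log2) and H3K27me3 IP over input (bottom, log2) by distance from the gene start in 100-bp bins (x axis, bp), in germline (left) and cyst (right), for the 57 homeobox genes (purple) and all genes (grey). Input lines are means and bands SDs of 7 libraries, and thin IP lines are replicates; the input peak 150 bp after the start of all genes (1.39 and 1.87) has no counterpart in the homeobox genes (0.79 and 0.87).

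H3K27me3, the Polycomb mark, was called at no homeobox promoter in germline or cyst, where 0% of all 13665 genes were called higher in germline and 0.0512% in cyst, with 0% and 0.834% lower. The median log2 difference of the 57 genes was 0.62 in germline and 0.29 in cyst, while all genes had -0.07 and -0.21. At an unadjusted p under 0.05, 27 were higher and 2 lower in germline (all genes 778 and 1677), and 14 higher and 1 lower in cyst (all genes 459 and 2451). In either direction, the germline count of 29 was 13 without germline replicate 1 (all genes 1186) and 4 with the GC correction (all genes 1196). The cyst count of 15 was 7, 8 and 10 without cyst replicates 1, 2 and 3 and 4 with the GC correction. Counts of all genes in these cyst settings are not given here, so the drop was not compared with other genes. Over the 57 genes the germline replicate medians were 0.99, 0.30 and 0.68, and those of cyst 0.24, 0.46 and 0.30. All genes had germline medians of 0.22, -0.36 and 0.15 and cyst medians of -0.38, -0.13 and -0.15. The median of the 57 genes thus lay above that of all genes in 6 of 6 replicates. The 12 Hox genes (germline 1.12, 0.37 and 0.33, cyst 0.10, 0.21 and 0.28) also lay above all genes in each replicate. So did 26 other homeobox genes (germline 0.96, 0.30 and 0.35, cyst 0.03, 0.45 and 0.04). H3K9me3 at these promoters showed it too, with 57-gene medians of 0.21 and 0.34 for germline replicates (all genes -0.23 and -0.04). Its cyst medians were 0.31 and 0.205 (all genes -0.28 and -0.36). The shift was limited neither to the 57 genes nor to H3K27me3. Another fit of H3K27me3 took the input and IP of a number as a block, since both were taken to come from 1 chromatin preparation. In it 4 of the 57 genes were called higher in germline (unpg, otp, mirr and ro, with 0.0878% of all genes). In cyst 2 were then higher (unpg and slou; 0.234%) and 1 lower (exd; 3.55%). With the block and the GC correction together, none was called in germline or cyst.

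The highest promoter was again unpg. Its H3K27me3 IP signal was 2.86, 1 and 0.798 in germline, against 0.612, 0.219 and 0.345 in inputs. In cyst its IPs were 0.784, 1.12 and 1.17, against 0.226, 0.507 and 0.478. Each unpg IP exceeded each input of its tumour type, with log2 differences of 1.62 ± 0.43 (limma adjusted p = 0.227) and 1.19 ± 0.43 (adjusted p = 0.139). In germline otp stood at 1.28 and hth at 1.23, without passing. C15 stood at 1.06 in germline and 1.13 in cyst, ro at 1.19 and 0.91, and eve at 1.21 and 0.87. In the HOX-like class the median was 1.01 in germline and 0.87 in cyst. The muscle gene slou had cyst IPs of 1.49, 1.72 and 1.48, against 0.868, 0.687 and 0.567 in inputs, which do not overlap (1.06 ± 0.29, adjusted p = 0.0696). Its germline IPs were 2.29, 1.19 and 1.05, against 0.98, 0.719 and 0.655 (0.81 ± 0.29, adjusted p = 0.227). The limb gene Dll stood at 0.64 in germline and 0.73 in cyst, B-H1 at 0.89 and 0.68, B-H2 at 0.68 and 0.58, vvl at 0.58 and 0.17, cad at 0.44 and 0.11, and ap at 0.14 and -0.17. The medians of the other classes with 4 or more genes ran from 0.22 (POU) to 0.82 (TALE) in germline and from 0.06 (TALE) to 0.54 (NK-like) in cyst.

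Averaged over both tumour types, the lowest promoters were ey, exd and onecut. At ey the germline IPs held 0, 17 and 78 fragments, against 33, 61 and 148 in the inputs, and the cyst IPs held 46, 2 and 22 fragments, against 78, 44 and 55. At onecut, a neural gene on chromosome 4, the germline IPs held 0, 33 and 91 fragments, against 68, 61 and 161. A count of 0 allows up to 3 fragments, and both counts of 0 come from the shallowest library. At exd the cyst IP signal was 0.432, 0.0465 and 0.348, against 2.19, 0.328 and 1.13 in inputs, a log2 difference of -1.70 ± 0.64 (adjusted p = 0.149). The exd germline difference was -0.92 ± 0.64. In germline the exd IPs held 1, 11 and 20 fragments, against 10, 38 and 59 in inputs. In cyst they held 16, 1 and 8, against 58, 11 and 38. With 1 fragment added to each count, the log2 ratio of germline replicate 1 at exd was 0.35. Both exd and ey lay below input on average in each tumour type without passing the test. The gene toy, also on chromosome 4, stood at -0.12 and 0.06. The median of all 79 tested chromosome 4 genes was -1.49 in germline and -0.88 in cyst. The starts of 2 other coding genes lie within 1000 bp of the exd start, where fragments cannot be assigned to 1 gene.

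**Figure D3:**
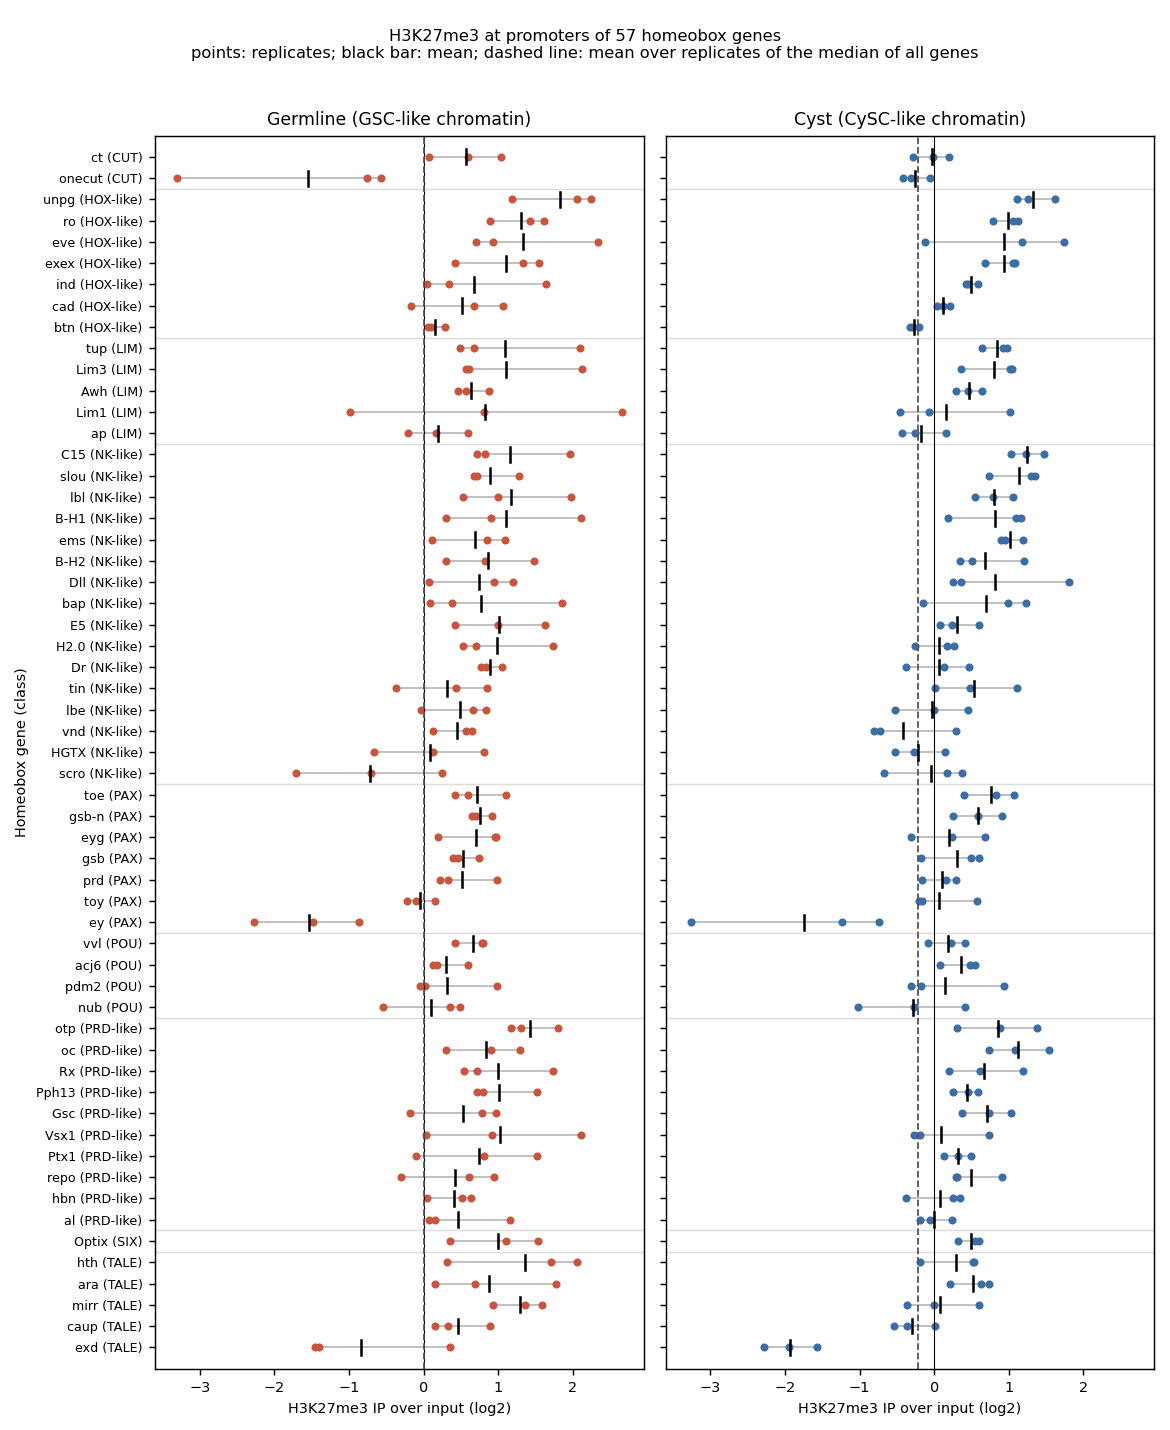
H3K27me3 IP over input (log2, x axis) at the promoters of the 57 homeobox genes (y axis, grouped by class) in germline (left) and cyst (right), with points for the 3 replicates, black bars for their mean and a dashed line for the mean over replicates of the median of all genes (0.01 and -0.22). Most germline means lie right of the line, with wide gaps between replicates, and ey and exd lie at the left in both panels and onecut in germline.

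Between tumour types no gene passed the test in H3K27me3 at promoters by limma, edgeR or DESeq2, and at an unadjusted p under 0.05 there were 2 homeobox genes and 496 genes in all. These were mirr, an Iroquois gene (IPs 2.57, 1.15 and 2.39 in germline and 0.649, 0.698 and 1.17 in cyst, difference 1.13 ± 0.46, adjusted p = 0.967), and H2.0 (0.85 ± 0.38). Replicates did not overlap in 8 of 57 genes with germline higher (14%), against 7.96% of all genes, and in 1 with cyst higher (onecut, 1.75%), against 2.33%. The GC correction put the median of the 57 genes at 0.13 in germline and -0.01 in cyst, while all genes had -0.10 and -0.20. Without germline replicate 1 (input and IP), the germline median was 0.46 (all genes -0.11) and 5 cyst promoters were called higher (tup, unpg, exex, C15 and slou), with 1.02% of all genes. Germline replicate 3 carries a batch label that no other H3K27me3 replicate has. Without germline replicate 3, exex was called higher in germline, with 0.0441% of all genes.

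Over gene bodies H3K27me3 was again called in no homeobox gene (0% of all 13622 genes called higher in germline and 0.0514% in cyst), with medians of 0.29 in germline and 0.21 in cyst, while all genes had 0.14 and 0.08. Without germline replicate 1 the germline median was 0.13 (all genes 0.04), and the median difference between tumour types was -0.12, against 0.07 with it. The segmentation gene eve had cyst IP signals of 1.11, 1.57 and 0.969, against 0.204, 0.262 and 0.424 in inputs. Its germline IPs were 1.64, 0.676 and 0.521, against 0.358, 0.338 and 0.478. The cyst IPs of eve lay clear of its inputs (1.74 ± 0.35, limma adjusted p = 0.0892), as did the germline IPs with a smaller difference (0.95 ± 0.35, adjusted p = 0.248). These inputs held few fragments at eve, with 8, 13 and 21 in cyst and 26, 16 and 80 in germline. The gene cad had cyst IPs of 1.74, 1.99 and 1.81, against 1.01, 1.08 and 1.12, a difference of 0.73 ± 0.12 (adjusted p = 0.0672). In germline cad stood at 0.34 ± 0.12, and the cad replicates of germline lay below those of cyst (difference -0.39 ± 0.17, adjusted p = 0.997). The edgeR test, DESeq2 and TMM scaling each called eve and cad higher in cyst bodies, with 1.18%, 2.04% and 1.67% of all genes. Without germline replicate 1, limma called 5 cyst bodies higher (eve, cad, ind, bap and Pph13), with 7.25% of all genes. The visceral mesoderm gene bap stood at 1.09 and 0.96, the neural column gene ind at 1.03 and 0.87, and prd at 1.02 and 0.40. In the HOX-like class all 7 genes had a positive difference in both tumour types, with medians of 0.35 in germline and 0.54 in cyst. Dll stood at 0.56 and 0.23, tin at 0.47 and 0.48, vvl at 0.31 and 0.21, ct at 0.08 and 0.21, and hth at 0.15 and -0.02. At the low end, scro stood at -0.84 and -0.52, exd at -0.67 and -0.60, and toy at -0.54 and -0.14. Between tumour types no gene passed by limma (1 homeobox gene, cad, and 427 genes in all at an unadjusted p under 0.05). Replicates did not overlap in 3 homeobox genes with germline higher (Ptx1, hth and prd, 5.26%), against 7.39% of all genes, and in 2 with cyst higher (cad and toy, 3.51%), against 5.08%.

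H3K9me3, the heterochromatin mark, had a positive log2 difference over 53 of 57 homeobox gene bodies in germline and 48 of 57 in cyst, by small amounts. None passed a fold of 1.5 in either tumour type, where 0.0657% of all 13705 genes were called higher in germline and 0.387% in cyst, and 1.87% and 4.15% lower. At a limma adjusted p under 0.05 with no minimum fold, a rule added after the values were seen, 15 of 57 were higher and 0 lower in germline (26.3%), against 1.04% of all genes higher and 11.9% lower. This germline count was 0 with the input and IP of a number as a block and 0 without either germline replicate. In cyst 29 were higher (50.9%) and 2 lower (exd and onecut), against 4.17% and 15.3% of all genes. The cyst count was 26 higher and 1 lower with the block and 0 without either cyst replicate. By edgeR 40 were higher in germline and 41 in cyst, by DESeq2 26 and 36, and with TMM scaling 29 and 37. The shares of all genes under this rule in these settings are not given here, so these counts cannot be set against other genes. The median log2 difference was 0.22 in germline and 0.27 in cyst, while all genes had -0.10 and -0.07. The 12 Hox genes had medians of 0.23 and 0.26, and 26 other homeobox genes 0.10 and 0.09, and the 57 genes lay nearer to the Hox genes.

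The 15 germline genes, none of which passed with the block, were Dr, Gsc, Lim1, Optix, Ptx1, Vsx1, cad, eve, hth, lbe, oc, otp, prd, tin and vnd, and all but hth were among the 29 cyst genes. For eve the IP signal was 1.02 and 1.15 in germline, against 0.741 and 0.741 in inputs, and 0.829 and 0.822 in cyst, against 0.596 and 0.526. No eve IP overlapped its inputs (0.49 ± 0.09 in each tumour type, adjusted p = 0.0227 and 0.0134). Vsx1, a visual system gene on X, stood at 0.43 and 0.44. The head gene ems stood at 0.38 in germline (adjusted p = 0.0523) and 0.57 in cyst (0.0138). The NK-like neighbours tin and bap had cyst IPs of 1.23 and 1.19 (tin) and 1.02 and 1.06 (bap), against 0.754 and 0.842 (tin) and 0.685 and 0.648 (bap) in inputs. Their cyst differences were 0.54 ± 0.07 and 0.58 ± 0.07 (adjusted p = 0.00721 each). In germline they stood at 0.29 and 0.26. The NK-like class had medians of 0.25 in germline and 0.37 in cyst, and the PRD-like class 0.24 and 0.34, while the LIM class stood at 0.05 and 0.07. Within the LIM class Lim1, on X, stood apart at 0.37 and 0.45, and ap stood at 0.04 and -0.05. The Bar genes B-H1 and B-H2 stood at 0.28 and 0.27 in germline and at 0.26 and 0.43 in cyst. At unpg, the highest promoter in H3K27me3, the gene body H3K9me3 difference was 0.15 in germline and -0.01 in cyst.

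At the low end, exd had IP signals of 0.398 and 0.397 in germline, against 0.521 and 0.469 in inputs, and 0.653 and 0.664 in cyst, against 0.927 and 1.08. Its IPs lay below its inputs in both (-0.26 ± 0.10, limma adjusted p = 0.107, in germline and -0.54 ± 0.10, adjusted p = 0.013, in cyst). In germline btn stood lower still, at -0.31 ± 0.16 (adjusted p = 0.231), with replicates far apart. On chromosome 4, ey stood at 0.18 in germline and -0.01 in cyst, toy at 0.16 and -0.03, and onecut at -0.12 and -0.28. The median of all 80 chromosome 4 genes was -0.09 and -0.21, so this chromosome did not stand above input on this scale.

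**Figure D4:**
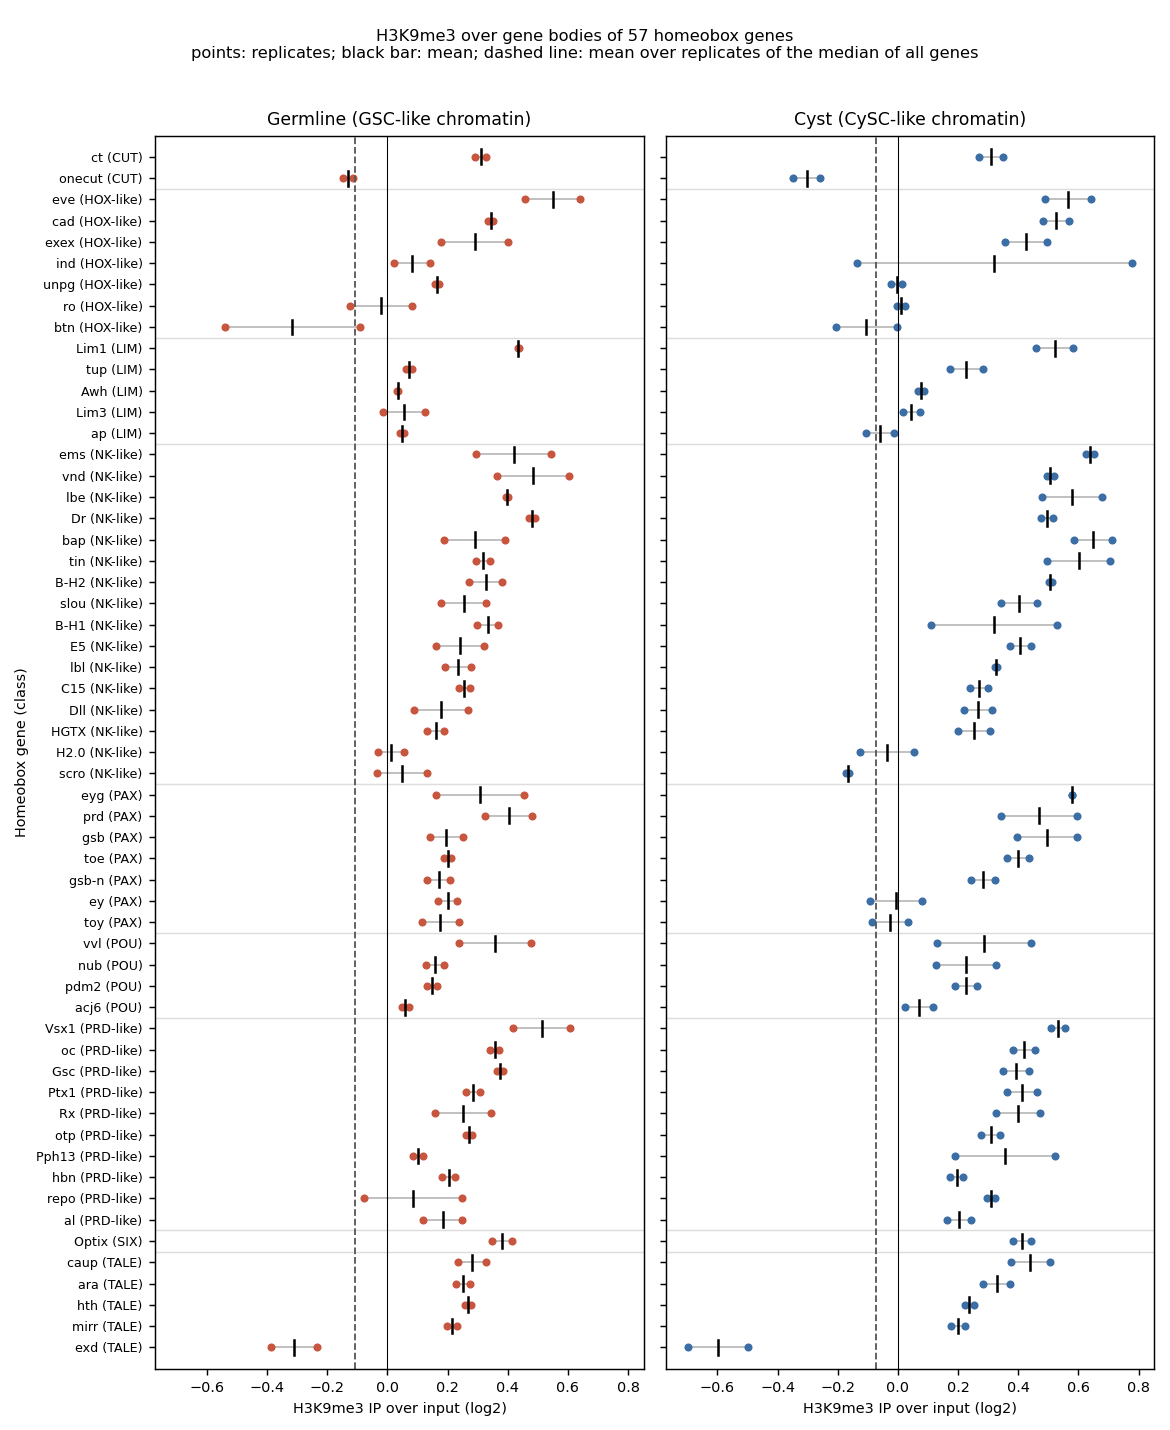
H3K9me3 IP over input (log2, x axis) over the gene bodies of the 57 homeobox genes (y axis, grouped by class) in germline (left) and cyst (right), with points for the 2 replicates, black bars for their mean and a dashed line for the mean over replicates of the median of all genes (-0.11 and -0.07). Most genes lie right of 0, while exd, onecut and btn lie left of it in both panels.

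No homeobox gene and none of all genes passed the test of a difference between tumour types in H3K9me3 by limma (3 and 1616 at an unadjusted p under 0.05), and edgeR and DESeq2 called no homeobox gene. The 3 were bap (-0.31 ± 0.11, adjusted p = 0.332), gsb and tin, all lower in germline. Replicates did not overlap in 8 genes with germline higher (14%), against 19.1% of all genes, and in 24 with cyst higher (42.1%), against 27%. The gene bodies of the 57 genes are longer than average, and the part of length in these values was not tested. The GC correction left the medians at 0.21 and 0.31.

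The input itself measures how much chromatin MNase released at a site, and the homeobox promoters were low in it. The median over the 57 promoters was 0.719 to 1.02 across the 7 germline inputs (median 0.776) and 0.738 to 0.967 across the 7 cyst inputs (median 0.806). Over all genes it was 0.984 to 1.16 in germline (1.03) and 1.10 to 1.32 in cyst (1.14). The lowest promoters were B-H2, oc and B-H1, all on X, where the median of all genes was 0.511 to 0.625 in germline and 0.627 to 0.786 in cyst, and male flies carry a single X. B-H2 ranged from 0.245 to 0.512 (median 0.367) in germline and from 0.293 to 0.354 (median 0.322) in cyst. The highest were onecut (medians 1.39 and 1.58), ey (1.31 and 1.64) and scro (1.31 and 1.4), whose promoter GC contents are 37.96%, 31.07% and 32.87%.

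Between tumour types, 4 of 57 promoters (7.02%) were lower in germline and 0 higher (limma over 14 inputs), where 29.5% of all 13701 genes were called lower and 0.905% higher. The Hox cofactor exd had input signals of 0.204 to 1.19 (median 0.522) in germline and 0.328 to 2.19 (median 1.33) in cyst, a difference of -0.85 ± 0.29 (adjusted p = 0.033). The wing and sensory organ gene ct ranged from 0.375 to 0.708 (median 0.514) in germline and from 0.627 to 0.821 (median 0.755) in cyst, a difference of -0.43 ± 0.13 (adjusted p = 0.0218). The ranges overlap at exd and, at their edges, at ct. The remaining 2 were ey (-0.53 ± 0.18) and btn (-0.41 ± 0.14). The median difference of the 57 promoters was 0.03, against -0.21 over all genes. On X, the median of the 9 was -0.04, against -0.31 for all X genes.

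**Figure D5:**
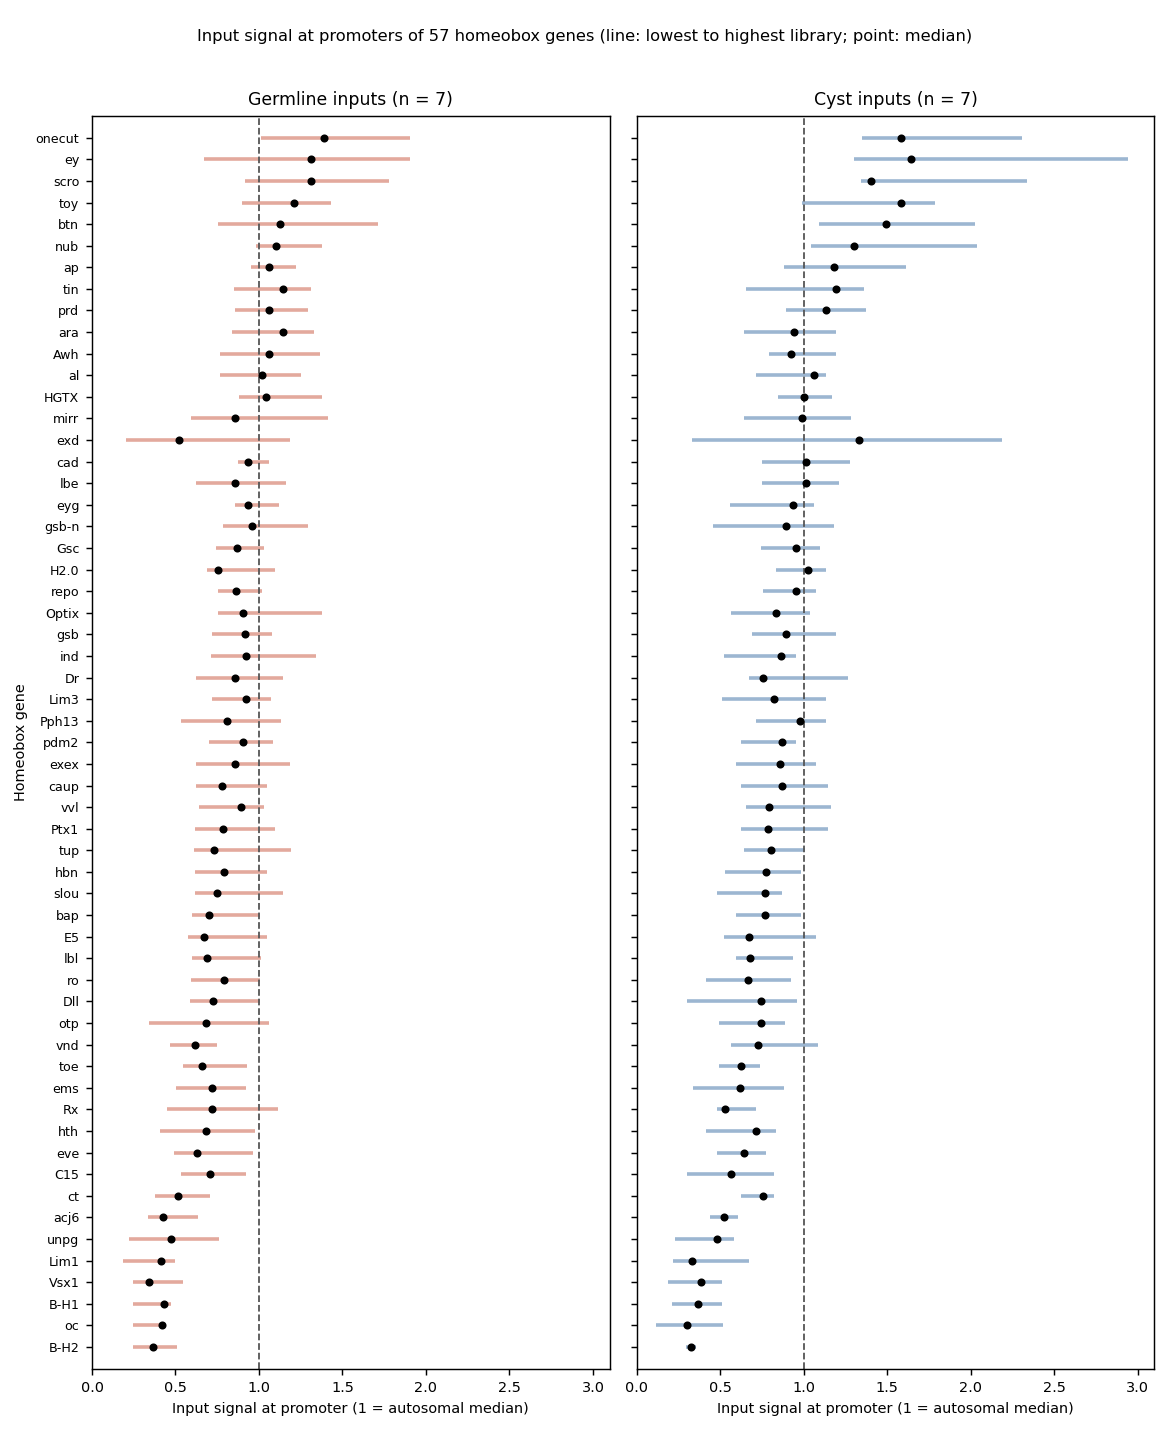
Input signal (x axis, 1 is the autosomal median, dashed line) at the promoters of the 57 homeobox genes (y axis, ordered by level) in the 7 germline inputs (left) and the 7 cyst inputs (right); lines run from the lowest to the highest library and points mark medians. Most points lie below 1, the 5 genes at the bottom are on X, and exd has a median of 0.522 in germline and 1.33 in cyst.

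Over gene bodies, otp (0.911 to 0.962 in germline and 0.704 to 0.898 in cyst) and eyg were higher in germline, and ct (0.529 to 0.607 in germline and 0.608 to 0.669 in cyst) and exd lower. The ranges of otp and ct do not overlap between tumour types, which held in 0.19% of all genes with germline higher and 2.65% with cyst higher. These 2 higher (3.51%) and 2 lower (3.51%) genes compare with 1.67% and 20.2% of all genes. The differences were 0.18 ± 0.05 at otp, 0.24 ± 0.06 at eyg, -0.17 ± 0.05 at ct and -0.61 ± 0.15 at exd (limma adjusted p = 0.0297, 0.0146, 0.0329 and 0.0164).

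The input calls change with scaling, with the batches kept and with single inputs left out. TMM scaling moved the median promoter difference of all genes to 0.01, and 4 other promoters (Rx, gsb-n, C15 and slou) were then called higher in germline (5.2% of all genes) with none lower, while the median over the 57 genes stayed 0.24 above that of all genes in both scalings. The batches that hold both tumour types leave out the H3K4me3 inputs and the third germline H3K27me3 input. In them no homeobox gene was called (0.0073% of all promoters higher and 0.073% lower), and 6 homeobox promoters had an unadjusted p under 0.05. Without the second cyst H3K9me3 input no homeobox promoter was called, and without the first germline H3K4me3 input none was lower and 1 was higher in germline. Without any other single input, 1 to 6 were lower. Shares of all genes are not given here for the single inputs left out or for the unadjusted p. Those counts therefore cannot be set against other genes.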

How the data were processed

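ChIC-ChIP libraries of germline and cyst testis tumours (28 libraries, 7 inputs and 7 IPs per tumour type) were compared at 57 homeobox genes. The members and gene lists were chosen with earlier results of these data known. The authors aligned reads to dm6 with Bowtie2 2.4.5, per the submitters' processing notes. The deposited table holds signal in 40-bp windows every 20 bp on 7 chromosomes. In the deposited signal, 100% of values in each library were whole fragments (tolerance 0.01) divided by 1 divisor per library, equal in 28 of 28 libraries to the autosomal median of window counts in 1000-bp bins. Duplicate and fragment-size filters are not given in sources used here.

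Windows were solved into 20-bp bins (0 negative bins) and summed over promoters and gene bodies of the Release 6 annotation. The signal was tested as log2(signal + 0.1) with limma 3.58.1 with a mean-variance trend in R 4.3.3, on genes with a mean of 10 fragments or more, with Benjamini-Hochberg adjustment over all genes. The log2 differences are on this scale and understate changes at low signal. For each mark all its libraries entered 1 fit of 4 groups; for inputs, 14 libraries with the mark set as covariate. The alternatives are edgeR 4.0.16 quasi-likelihood and DESeq2 1.42.0 on the recovered fragments, TMM scaling, a loess GC correction (span 0.3), a pseudocount of 0.5, no filter, 10-kb and other windows, all annotated starts, a replicate block, batch labels and leaving out replicates. Log2 IP over input per replicate adds 1 fragment and uses the input of the same number. Per the protocol in the labels, input and IP are shares of 1 solubilised preparation, and those with the same number were taken as a pair. Their deviations correlated at -0.137 to 0.357. The main fits compared group means and did not use this pairing. Fits were tested on simulated data with known changes. Named genes are at most 8 called genes per test, the 3 highest and lowest per mark, up to 3 per direction whose replicates do not overlap, the input extremes and 13 further genes of wide use. A count of 0 allows up to 3 fragments, for counting error only.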

Additional observations from a re-analysis of the deposited data

Results flagged for a closer look

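Input signals of single homeobox genes were checked for a library far from the other 6 of its tumour type, over 48 groups of 7 inputs. A chance rate of about 1 in 20 would hold for independent groups, and 9 stood out here. Promoter and body windows of a gene overlap, and the flagged genes are among those named for their input values. The 9 were therefore not compared with that rate. Of these, 4 came from the first cyst H3K27me3 input, which was highest at the scro promoter (2.34, next 1.55), the scro body (1.79, next 1.31), the ey body (1.98, next 1.49) and the onecut body (2.22, next 1.72). The third cyst H3K27me3 input was lowest at the eyg promoter (0.556, next 0.908). The second cyst H3K4me3 input was highest at the btn body (2.08, next 1.49). In germline, the first H3K9me3 input was highest at the eyg promoter (1.12, next 0.96), the second H3K27me3 input was highest at the ey body (1.72, next 1.33), and the first H3K27me3 input was lowest at the B-H1 body (0.317, next 0.432). Over the windows reported above, no test of a difference between tumour types in IP over input passed for a homeobox gene, so none is listed here on that ground.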

How the results depend on the processing

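Counts below are homeobox genes called in either direction, with the share of all genes called in the same setting in parentheses. The counts with no minimum fold carry no share here and were set against all genes above. Those with 1 replicate or input left out carry none either, so they cannot be read against other genes here. For H3K4me3 promoters, 22 in germline and 12 in cyst (25.3% and 31.3%) became 11 and 6 with a pseudocount of 0.5 (13.4% and 21.5%), 11 and 7 with TMM scaling (20.6% and 25.2%), 12 and 6 by DESeq2 (13.4% and 22.7%), 3 and 4 with the GC correction (14.2% and 27.4%), 4 and 4 with the replicate block and the GC correction together (16% and 27.8%), 6 and 4 over gene bodies (21.7% and 26%), and over 10-kb windows 1, ey, lower, and 0 (5.02% and 10.5%). H3K27me3 promoters, 0 in both, gave 4 in germline and 3 in cyst with the replicate block (1.75% and 3.78%). They gave 1 in germline within 1 batch (2.23%), which holds the same libraries as the fit without germline replicate 3. In cyst they gave 1 by edgeR (5.08%) and 1 by DESeq2 (5.66%). H3K27me3 bodies gave 2 in cyst with TMM scaling (1.94%), edgeR (1.35%) and DESeq2 (2.46%). H3K9me3 bodies, 0 in both, gave 1 in germline and 5 in cyst with TMM scaling (0.679% and 3.46%), 4 in cyst by edgeR (5.94%) and DESeq2 (4.82%), 6 and 4 over promoters (6.78% and 27%), 1 in cyst over 10-kb windows (0.931%), 15 and 31 with no minimum fold (added after seeing the data) and, between tumour types, 1 over promoters (2.18%), which was Lim1, higher in germline by 1.00 on the log2 scale. Input promoters, 4 lower (30.4%), gave 4 higher with TMM scaling (10.5%), 7 by DESeq2 (44.8%), 13 over 10-kb windows (51.2%), 2 with a replicate block (25.9%) and 0 in batches that hold both tumour types (0.0803%). Input bodies, 4 (21.9%), gave 8 with TMM scaling (12.5%), 16 by edgeR (34.6%), 14 by DESeq2 (34.7%), 13 over 10-kb windows (51.2%), 2 with a replicate block (16.5%) and 0 in batches that hold both (0.0657%). Same-numbered inputs of the tumour types share only a number. Leaving out 1 replicate gave 4 to 22 and 3 to 13 for H3K4me3 promoters, 0 to 1 and 0 to 5 for H3K27me3 promoters, 0 to 0 and 0 to 5 for H3K27me3 bodies, 0 to 0 for H3K9me3 bodies and each difference between tumour types in IP over input, 0 to 6 for input promoters and 2 to 10 for input bodies. A lone remaining replicate is assumed to vary like the other groups. Among single genes, eve in germline turned to -0.042 with the GC correction, with and without the block, exex in cyst to -0.041 over 10-kb windows and unpg in cyst to -0.061 over the gene body. Of the other values of named genes, 1211 kept direction and side of the threshold, 135 no longer passed and 24 passed newly. The causes were not tested.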
